A study of Drosophila melanogaster with 19 samples.

Results

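Of the 12679 Drosophila genes measured on the arrays, 347 were both lower in embryos labelled ttk mutant and higher in embryos labelled ttk over-expression. Each array's log2 values were first set relative to that array's median over all genes. A gene was kept when its mean in mutant embryos lay at least 0.8 below its mean in mutant control embryos, and its mean in over-expression embryos lay at least 0.8 above its mean in over-expression control embryos. The condition on mutant embryos was met by 1992 genes (15.7% of all genes), that on over-expression embryos by 762 genes (6.01%) and both by the 347 genes (2.74%). The embryo differences chose the genes, so they are given below as a description and without a test. The sorted cells were hybridised to other arrays, which the rule did not use, and were tested.

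The question behind the study was which genes respond, directly or indirectly, to loss and gain of Ttk in embryos and in their tracheal cells. The mutant embryos carried ttk2D50 with btl-enh-RFPmoe (2 arrays) and their controls btl-enh-RFPmoe alone (2 arrays). The over-expression embryos carried btl-GAL4 UAS-ttk btl-enh-RFPmoe (3 arrays) and their controls btl-GAL4 btl-enh-RFPmoe (3 arrays). Cells with btl reporter fluorescence, 100000 per condition, were sorted from the same 4 genotypes, giving 2 arrays of mutant cells, 3 of mutant control cells, 2 of over-expression cells and 2 of over-expression control cells. The reporter, present in every group, marks cells in which the btl enhancer is active, among them those of the tracheal system and the ventral midline. The study's text also describes reporter activity in lateral ectoderm, endoderm and amnioserosa, so the sorted cells are not tracheal cells alone, and the btl-GAL4 driver was used to express UAS-ttk in the btl domain. Mutant and mutant control stocks were kept at 25 °C, with eggs laid over 7 h 40 min and aged for a further 5 h 20 min. The over-expression stocks and their controls were kept at 29 °C per the labels. The study's text describes its over-expression embryos as of the same age range. Its methods give 25 °C for laying and ageing without setting these embryos apart, which differs from the labels. Homozygous mutants were selected by the lack of a fluorescent balancer, embryos were pooled, and RNA from several sorting runs was pooled into a sample. The strain field of both over-expression control cell samples names the mutant genotype, and these were grouped by their titles.

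Ttk is a zinc-finger transcription factor, best known in flies as a repressor, that acts in many embryonic tissues. Tracheal development is one of the processes that need it. Tracheal tubes grow around a transient filament of chitin, a polymer of N-acetylglucosamine, which is laid down in the lumen, modified by deacetylases and bound by secreted proteins with chitin-binding domains. Chitin is also laid down in the epidermal cuticle at the end of embryogenesis, together with cuticle proteins and under the action of secreted proteases.

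The transcript of ttk itself did not follow the labels. On the mutant embryo arrays its centred log2 level was 3.85 and 3.50, against 3.84 and 1.38 on the mutant control embryo arrays. On the mutant cell arrays it was 4.25 and 4.24, against 3.49, 3.37 and 3.38 on the mutant control cell arrays, and on the over-expression cell arrays it was 2.88 and 3.09, against 3.70 and 3.83 on their controls. In embryos with over-expression ttk stood at 2.77, 2.30 and 2.99, against 3.19, 3.15 and 3.15 in control embryos. In limma its adjusted p was 0.0506 in mutant cells and 0.308 in over-expression cells. Where ttk's probes lie relative to the allele and to the transgene is not given in the sources used here, so these values neither check nor contradict the genotypes. Every direction below is therefore a direction between arrays named by their labels. The tracheal regulator trh, which encodes the trachealess transcription factor, averaged 1.61 higher in mutant control cells than in mutant control embryos and 2.10 higher in over-expression control cells than in their embryos. The mesodermal regulator twi ran the other way in these controls, with a difference of -0.81 and -1.85. In the mutant experiment the single values of control cells and control embryos overlapped for both trh and twi. Replicate 3 of the mutant control cells stood apart in these genes, with trh at 1.77 against 3.69 and 3.56 on replicates 1 and 2, the receptor gene btl at 0.30 against 1.98 and 1.64, and twi at 1.37 against -0.46 and -0.35. On replicate 2 of the mutant control embryos trh was 0.79 against 2.02 on replicate 1, btl -0.42 against 0.77, and twi 0.48 against 1.51. On replicate 2 of the over-expression embryos trh was 1.53 against 1.82 and 2.15 on replicates 1 and 3. There btl was -1.79 against -0.18 and -0.12, and twi -1.19 against -0.19 and -0.02. The part of these levels in the choice of genes was not tested.

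Only 3 of the 347 genes have a symbol in the RefSeq table used here, namely Swim, Aldh and CG33272. A further 28 stand under a Gene Ontology term in the study's own tables, and the remaining 316 are known here by their FlyBase number alone. Of the 16 lists of tracheal, cuticle, midline, mesoderm and other marker genes, none had 80% of its symbols paired with a gene number, so no count over them was made and the sorted cells could not be checked against whole marker lists.

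**Figure D1:**
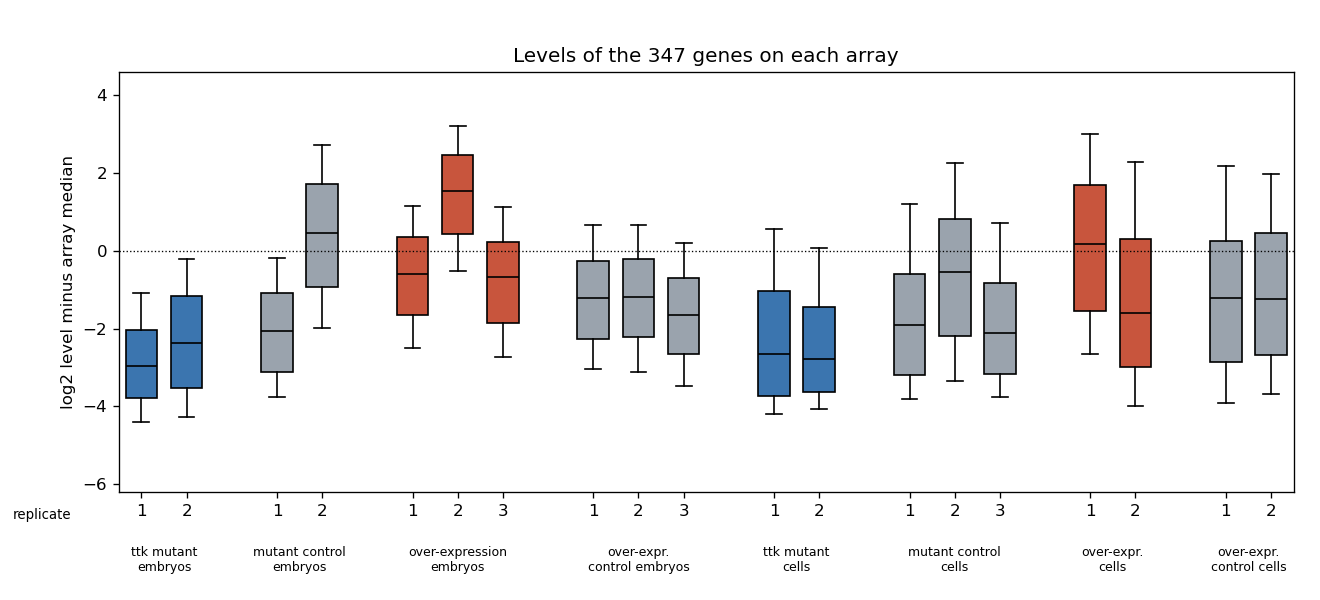
Level of the 347 genes on each of the 19 arrays, as log2 value minus the array's median over all genes (dotted line at 0). Boxes span the quartiles with the median as a line and whiskers reach the 10th and 90th percentiles, blue for mutant, red for over-expression and grey for control arrays. Replicate 2 of the mutant control embryos (median 0.46) and replicate 2 of the over-expression embryos (median 1.53) stand above the other arrays of their groups.

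Across embryos the 347 genes were mostly expressed below the middle of the array in every group except on a pair of arrays. Their median level was -2.97 and -2.36 in mutant embryos, against -2.05 and 0.46 in mutant control embryos. It was -0.58, 1.53 and -0.67 in over-expression embryos, against -1.22, -1.19 and -1.65 in over-expression control embryos. Thus replicate 2 of the mutant control embryos and replicate 2 of the over-expression embryos were high, while replicate 1 of the mutant control embryos lay nearer to the mutant embryos than to its own replicate. Of the 347 genes, 98.6% were higher on replicate 2 than on replicate 1 of the mutant control embryos, against 55% of all genes, and 98.3% had their highest over-expression embryo value on replicate 2, against 28.4% of all genes. The median SD of a gene within the mutant control embryos was 1.68 for these genes and 0.41 for all genes. Within the over-expression embryos it was 1.22 and 0.24, while within the over-expression control embryos it was 0.25 and 0.08.

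The median difference that the rule selected was -1.61 in mutant embryos (range -5.69 to -0.80), against -0.02 over all genes, and 1.20 in over-expression embryos (range 0.80 to 3.58), against -0.09 over all genes. Taken against single control arrays, mutant embryos lay 0.8 or more below replicate 1 of their controls at 106 of the 347 genes (30.5%) and below replicate 2 at 346 (99.7%). The over-expression embryo arrays lay 0.8 or more above the mean of their controls at 124 genes for replicate 1, 344 for replicate 2 and 104 for replicate 3. The rule averaged these same arrays, and the single-array counts were not made over all genes. How far the choice of genes shaped them therefore cannot be read here. The arrays of mutant embryos and of their controls did not overlap at 208 of the 347 genes (27.3% of all genes were lower without overlap), and those of over-expression embryos and their controls at 262 (14.1% of all genes were higher without overlap). At 162 genes neither comparison overlapped (4.92% of all genes). The genes nearest each threshold on either side were picked by their closeness to it, so a small difference between them was fixed by that choice. Inside the mutant threshold the nearest differences were -0.80, -0.80 and -0.81, with -0.79, -0.78 and -0.78 just outside, and inside the over-expression threshold they were 0.80, 0.80 and 0.80, with 0.80, 0.80 and 0.79 just outside.

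Without replicate 2 of the mutant control embryos the rule kept 110 genes, 106 of them among the 347. Without replicate 2 of the over-expression embryos it kept 112, of which 109 were among the 347. Without both arrays it kept 44 genes, 37 of them among the 347, and leaving out replicate 3 of the over-expression embryos raised the number to 557, which included 346 of the 347. With any one of the other 7 embryo arrays left out, the number of genes lay between 307 and 505.

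**Figure D2:**
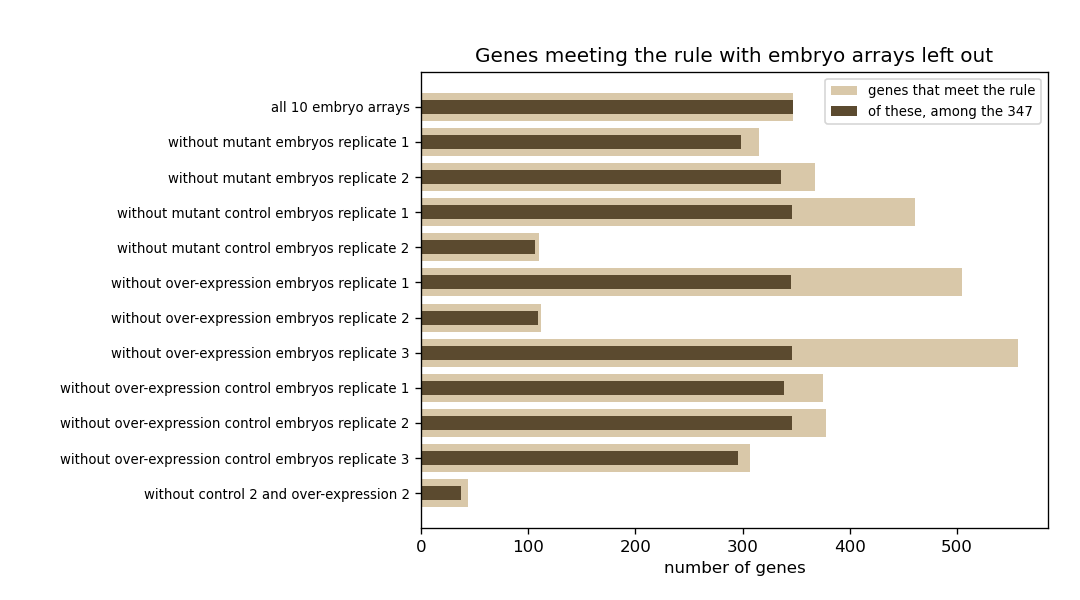
Number of genes that meet the rule when embryo arrays are left out, on a linear axis. Wide bars count all genes that then meet it and narrow dark bars count those that are among the 347, which fell to 106 and 109 without either replicate 2 array and to 37 without both.

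The arrays on which the 347 genes stood high in different groups were compared gene by gene. The excess of replicate 2 over replicate 1 in mutant control embryos and the excess of replicate 2 over the mean of replicates 1 and 3 in over-expression embryos correlated with a Pearson's r of 0.513 across all 12679 genes and 0.293 across the 347. The first of these also correlated with the excess of replicate 2 in mutant control cells (r = 0.435 across all genes, 0.418 across the 347). The excess in over-expression embryos correlated with that in mutant control cells at 0.591 across all genes and 0.139 across the 347, and with the excess of replicate 1 in over-expression cells at 0.396 and 0.079. With the excess of replicate 2 in mutant embryos it correlated at 0.434 across all genes and -0.099 across the 347. These correlations are across genes, which are not independent replicates, and the arrays on either side of each are different. The rule chose the 347 genes by the embryo arrays in these contrasts. The r across the 347 therefore cannot be read against the r across all genes. In mutant control cells the 347 genes were a median of 0.97 higher on replicate 2 than on the mean of replicates 1 and 3, against -0.21 for all genes. In over-expression cells they were a median of 0.92 higher on replicate 1 than on replicate 2, against -0.05 for all genes. The labels do not say whether embryo and cell samples of one number came from the same collection, and what set these arrays apart was not tested.

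In mutant cells the 347 genes lay mostly below the mutant control cells. Their median level was -2.65 and -2.78 in mutant cells, against -1.91, -0.56 and -2.11 in mutant control cells, so that both mutant arrays lay below every control array. At single genes the mean was lower in mutant cells at 294 of 347 (84.7%), against 49% of all genes, with a median log2 difference of -0.85 against 0.01 over all genes. The 1645 genes that were lower in mutant embryos but did not meet the over-expression condition had a median of -0.52 and were lower at 80.5%. The 415 genes that were higher in over-expression embryos alone had a median of 0.10. Whole arrays were compared, so fewer cells of a type and less RNA per cell cannot be told apart in any of these differences.

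With limma and Benjamini-Hochberg adjustment over all genes, 25 of the 347 genes were lower in mutant cells at an adjusted p of 0.05 or less (7.2%, against 1.92% of all genes). Their log2 differences lay between -4.07 and -1.10. The share among the genes lower in mutant embryos alone was 7.9%. A single gene among the 347, FBgn0034247, was called higher (0.288%, against 3.53% of all genes). By the study's rule for candidates, an absolute log2 difference of 1 or more with an unadjusted p of 0.05 or less, 82 genes were lower (23.6%, against 4.57% of all genes) and 6 were higher (1.73%, against 5.17%). The arrays did not overlap at 186 genes that were lower (53.6%, against 18.6% of all genes). The count of called genes was 2 without replicate 1 and 2 without replicate 2 of the mutant cells (0.0473% and 0.11% of all genes), and 7 without replicate 1 of the mutant control cells (0.347%). Without replicate 2 of the control cells, the high array, it was 30 (1.1%), of which 14 were among the 25, and the median difference was -0.50. Without replicate 3 of the control cells, the array with low trh and btl, it was 51 (2.18%), and 136 genes were lower by the candidate rule (39.2%, against 7.1% of all genes). The part of these marker levels in the counts was not tested. Of the 25 called genes, 7 held the same deposited number on 2 or more arrays of a cell group.

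The called gene with the largest combined difference in embryos was FBgn0034010. It stood at 0.06 and -0.02 in mutant cells, against 4.0, 4.31 and 3.84 in mutant control cells, a log2 difference of -4.03 ± 0.20 (SE, adjusted p = 0.0029, limma). The 2 cell groups were far apart and each was tight, and the adjusted p was 0.0467 or less when the arrays were left out in turn or processed otherwise. In embryos it stood at -3.00 and -0.73 in mutants, against 1.04 and 3.47 in their controls. Its level was 5.17 and 5.43 in over-expression cells, against 4.96 and 5.11 in over-expression control cells, a difference of 0.27 ± 0.16 (SE, adjusted p = 0.535, limma). The gene was high on all 4 of these arrays. The largest differences of the 347 genes in mutant cells belonged to FBgn0035742, with -4.27 and -4.36 in mutant cells against -0.60, 2.87 and -1.37 in mutant control cells, and to FBgn0038700, with -3.70 and -3.26 against -0.28, 2.26 and -0.11. These had an adjusted p of 0.117 and 0.0555 in limma. In both genes replicate 2 of the control cells was the highest array.

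In over-expression cells the picture was less even. The median level of the 347 genes was 0.17 and -1.61 in over-expression cells, against -1.22 and -1.25 in over-expression control cells. Replicate 1 thus lay above both controls and replicate 2 lay below them. On replicate 1 of the over-expression cells trh was 3.28 and btl 2.11, against 4.22 and 3.06 on replicate 2, and their part in the result was not tested. The mean was higher in over-expression cells at 252 of 347 genes (72.6%, against 38.4% of all genes), with a median difference of 0.49 against -0.08. Without replicate 1 of the over-expression cells the median was -0.081, close to -0.082 over all genes, and 160 genes (46.1%) were higher, against 37.9% of all genes. The 415 genes higher in over-expression embryos alone had a median difference of 0.27 with both arrays, and the 1645 genes lower in mutant embryos alone one of -0.04.

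No gene was called higher in over-expression cells by limma at an adjusted p of 0.05 or less, among the 347 or among all genes (0%). At an unadjusted p under 0.05, 56 of the 347 were higher (16.1%, against 4.78% of all genes), and when all 4 groups of the over-expression experiment shared a fit, 7 were called (0.647% of all genes). By the candidate rule 39 genes were higher (11.2%, against 1.51% of all genes) and 1, FBgn0034664, was lower (0.288%, against 1.01% of all genes). The arrays did not overlap at 104 genes that were higher (30%, against 15.6% of all genes). The largest candidate difference was that of FBgn0032025, at -0.06 and 0.38 in over-expression cells against -3.67 and -3.33 in their controls, a log2 difference of 3.66 ± 0.23 (SE, adjusted p = 0.187, limma). Here both replicates were high, and in mutant cells the gene stood at -3.71 and -3.83, against -3.14, -2.64 and -3.16 in mutant control cells, near its level in the over-expression controls. FBgn0011283 followed, at 2.24 and 0.56 in over-expression cells against -2.03 and -2.09 (log2 difference 3.46 ± 0.61, SE, adjusted p = 0.308, limma).

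**Figure D3:**
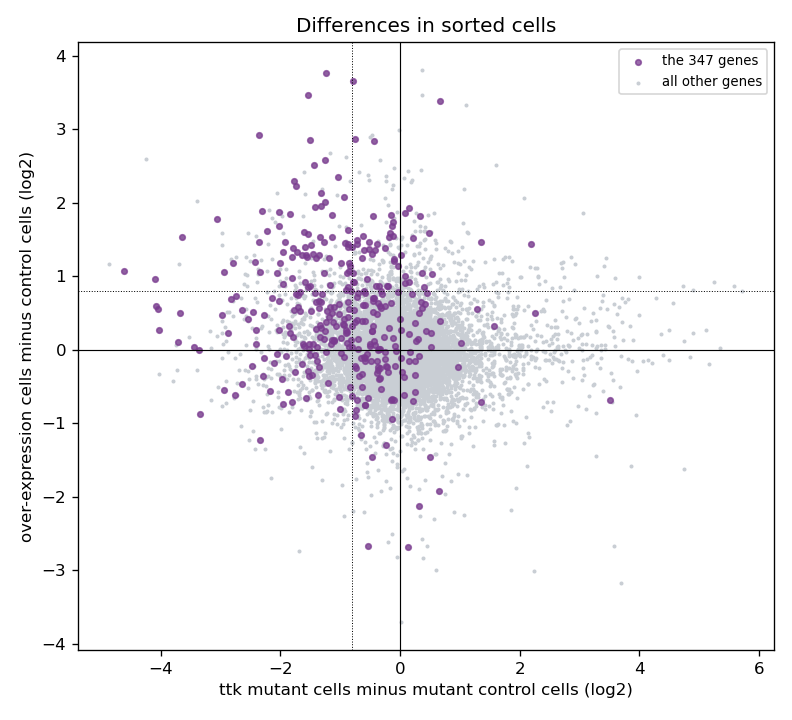
Log2 difference of each gene in sorted cells, mutant minus mutant control cells on the horizontal axis and over-expression minus over-expression control cells on the vertical axis, for the 347 genes (purple) and all other genes (grey). Dotted lines mark -0.8 and 0.8, and 68 of the 347 genes lie beyond both in the upper left.

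Both directions of the embryo rule, at any size, were found together in the cells at 217 of the 347 genes (62.5%, against 20.1% of all genes). The share was 37.3% for the genes lower in mutant embryos alone and 32.8% for those higher in over-expression embryos alone. Both differences reached 0.8 in size at 68 genes (19.6%, against 1.32% of all genes). Lower values in both cell comparisons were seen at 77 genes (22.2%, against 28.9% of all genes), higher values in both at 35 (10.1%, against 18.3%) and the reverse of the embryo rule at 18 (5.19%, against 32.7% of all genes). With replicate 2 of the mutant control cells and replicate 1 of the over-expression cells both left out, 124 of the 347 genes had both directions (21.1% of all genes then did so). Of the 37 genes that met the rule without either high embryo array, 25 had both directions in the full set of cell arrays (20.1% of all genes did). This count was not made again with those cell arrays left out.

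The candidate rule was met in both cell comparisons by 10 of the 347 genes (2.88%, against 0.213% of all genes), and 2 of them were also called in mutant cells. FBgn0039356 stood at 1.26 and 1.34 in mutant cells, against 3.75, 3.04 and 3.19 in mutant control cells (log2 difference -2.03 ± 0.26, SE, adjusted p = 0.0186, limma). In over-expression cells it stood at 2.09 and 1.87, against 0.03 and 0.18 in their controls (1.88 ± 0.15, SE, adjusted p = 0.187, limma). In embryos its values were 1.91 and 1.68 in mutants against 2.98 and 3.23 in controls, and 1.57, 0.56 and 1.62 in over-expression embryos against -0.27, -0.16 and -0.17 in controls. The groups did not overlap in any of these comparisons, and the replicate 2 array of the over-expression embryos was here the lowest of its group. FBgn0035880 also differed without overlap in all 4 comparisons, at -0.33 and -0.55 in mutant cells against 1.20, 0.85 and 0.97 in mutant control cells (-1.45 ± 0.19, SE, adjusted p = 0.0212, limma) and at 3.00 and 3.47 in over-expression cells against 0.97 and 0.48 in their controls (2.51 ± 0.27, SE, adjusted p = 0.25, limma). Its deposited values on replicates 2 and 3 of the mutant control cells were the same number, which narrows the spread behind that call, and genes of this kind were left out in an alternative. In embryos it stood at -1.27 and -0.63 in mutants against 0.87 and 1.11 in controls, and at 1.70, 1.77 and 1.66 in over-expression embryos against -0.57, -0.55 and -0.63 in controls. Without either mutant cell array the adjusted p of both genes in mutant cells lay between 0.128 and 0.154. Both genes have no symbol or term in the sources used here and were singled out after their values were seen.

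The annotated genes fell mainly under overlapping metabolic terms, with 13 of the 347 under amine, 12 under carbohydrate and 11 each under chitin, aminoglycan and polysaccharide metabolic process, and 9 under proteolysis. The lists for amine metabolism, carbohydrate metabolism and proteolysis are held here in part, and the chitin list is held whole. Of the 27 genes that the study lists under chitin metabolic process among those up in over-expression embryos, 11 were among the 347. This list and those of the other terms above hold genes that the study found up in over-expression embryos. The lists were drawn up on these samples, so neither the terms the genes fall under nor their direction in over-expression embryos is independent evidence. All 27 met the over-expression condition, so that the mutant embryo threshold alone set the 11 apart from the other 16. In mutant cells the 11 had a median difference of -1.40 and 10 of them were lower, against 49% of all genes. The 16 others had a median of 0.11 and 6 of them were lower. None of the 11 passed an adjusted p of 0.05 in limma, where 1.92% of all genes were called lower. At an unadjusted p of 0.05 with an absolute difference of 1 or more, 1 was lower, against 4.57% of all genes. The arrays did not overlap at 6, while 18.6% of all genes were lower without overlap. In over-expression cells the 11 had a median difference of 0.50, and 7 were higher, against 38.4% of all genes. None was called or a candidate, and the range ran from -2.13 to 1.63.

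**Figure D4:**
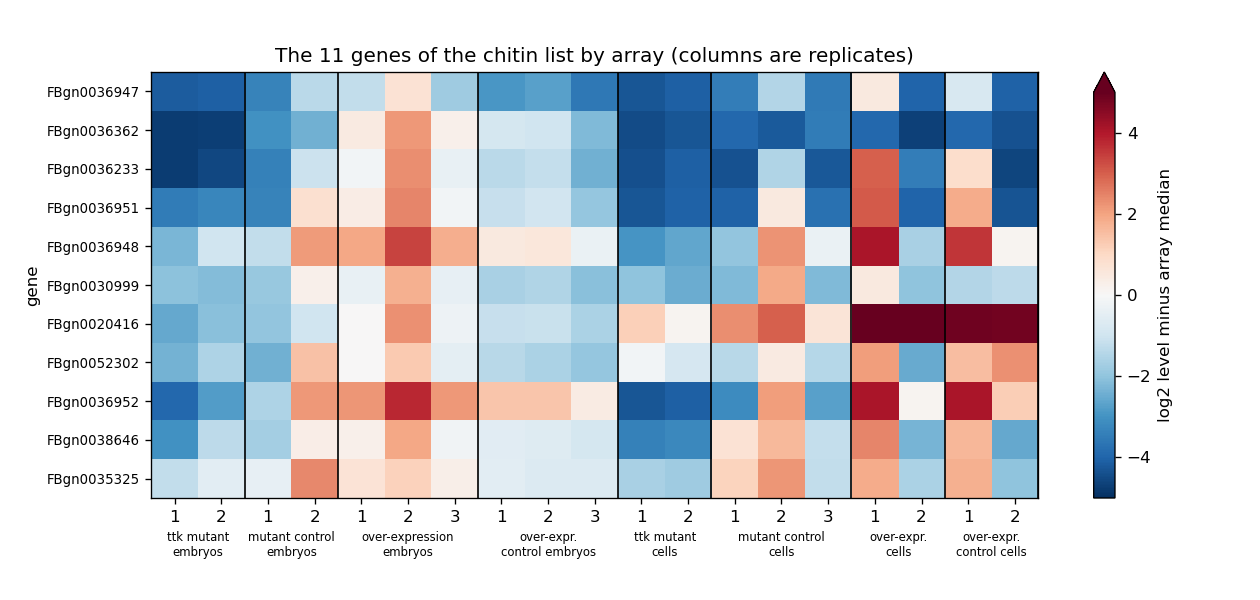
Level of the 11 chitin list genes on each array, as log2 value minus the array's median over all genes, in a colour scale from -5 (blue) to 5 (red), with columns by group and replicate and rows ordered by their difference in over-expression embryos. Replicate 1 exceeds replicate 2 by 2 or more in 9 rows of the over-expression cells and in 7 rows of their controls, whereas FBgn0020416 stays at 4.82 or above on these 4 arrays.

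In the over-expression experiment most chitin list genes followed the replicate number in the sorted cells. In over-expression cells 10 of the 11 were higher on replicate 1 than on replicate 2 (44.7% of all genes were). The excess was 2 or more at 9 of them, with a median of 4.47 over the 11. In over-expression control cells 9 of the 11 were higher on replicate 1 (46.5% of all genes were). There the excess was 2 or more at 7 of them, with a median of 3.23 over the 11. FBgn0036951 showed it most, at 3.05 and -3.99 in over-expression cells against 1.87 and -4.32 in their controls, and FBgn0036233 stood at 3.01 and -3.46 against 0.86 and -4.58. Across all 347 genes the over-expression control cells showed no such excess, with a median of 0.01. In mutant control cells 10 of the 11 were highest on replicate 2 (17% of all genes were). Over the 11, replicate 2 exceeded the mean of the others by a median of 2.28.

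FBgn0038646 had the largest difference of the chitin list genes in mutant cells. It stood at -3.37 and -3.22 in mutant cells, against 0.71, 1.62 and -1.18 in mutant control cells, a log2 difference of -3.68 ± 0.81 (SE, adjusted p = 0.0713, limma). No mutant array reached any control array, and in over-expression cells it stood at 2.43 and -2.33 against 1.66 and -2.55, so that the groups overlapped. FBgn0036952, with -4.30 and -4.09 in mutant cells against -3.14, 2.10 and -2.70 in mutant control cells, had a difference of -2.95 ± 1.62 (SE, adjusted p = 0.376, limma), and one of -1.27 without replicate 2 of the control cells (adjusted p = 0.0722, limma). In embryos it stood at -3.92 and -2.81 in mutants against -1.53 and 2.15 in controls, and at 2.23, 3.76 and 2.17 in over-expression embryos against 1.40, 1.39 and 0.42 in controls. FBgn0020416 was far higher in the sorted cells of the over-expression experiment than in its embryos, at 5.32 and 5.68 in over-expression cells against 4.88 and 4.82 in their controls (0.65 ± 0.18, SE, adjusted p = 0.36, limma), and at 1.21 and 0.13 in mutant cells against 2.33, 3.00 and 0.66 in mutant control cells. FBgn0036362 was low in the cells, between -4.67 and -3.51 on all 9 arrays, although it ranged from -4.76 in mutant embryos to 2.16 in over-expression embryos. Each of its cell values lay below the lower quartile of all genes on that array, so a steady level cannot be read from them. FBgn0052302 was the chitin list gene with a higher mean in mutant cells, at -0.12 and -0.83 against -1.39, 0.44 and -1.44 in mutant control cells, with overlapping groups. Of the 11 genes, 3 met the rule without either high embryo array.

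Under proteolysis stood 9 of the 347 genes, of 28 entries in the partial copy of that list. Proteases of the late embryo act in the digestive tract, in the cuticle and in the processing of secreted proteins. In mutant cells these 9 had a median difference of -0.80, with 5 lower (49% of all genes were), and 1 was called (1.92% of all genes). This was FBgn0032413, at -4.10 and -4.29 in mutant cells against -2.91, -2.66 and -2.93 in mutant control cells (-1.37 ± 0.18, SE, adjusted p = 0.0212, limma), and in over-expression cells it stood at -2.66 and -3.84 against -3.60 and -1.66. Its deposited values on replicates 1 and 3 of the mutant control cells were the same number, as were those of FBgn0032412 on all 3 of these arrays, so the spread behind both tests is narrowed. FBgn0032412, under the same term, stood at -3.94 and -3.88 in mutant cells against -3.05, -3.19 and -3.07 in mutant control cells (-0.80 ± 0.16, SE, adjusted p = 0.0575, limma). The mutant cell values of FBgn0032413 and FBgn0032412 lay below the lower quartile of all genes on their arrays. In over-expression cells the median difference of the 9 was 0.52, 6 were higher (38.4% of all genes were) and none was called. FBgn0031929 was the candidate among them, at -1.75 and -2.92 in over-expression cells against -4.46 and -4.08 in their controls (1.94 ± 0.45, SE, adjusted p = 0.344, limma). FBgn0031141 had the largest difference of the 9 in over-expression embryos, at 0.24, 2.52 and 0.60 against -1.39, -1.37 and -2.38 in controls, and in mutant embryos it stood at -3.97 and -4.28 against -2.82 and -0.55. It met the rule without either high embryo array.

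Under amine metabolic process, FBgn0038105 was called in mutant cells, at -2.74 and -3.13 against -1.67, -1.53 and -1.68 in mutant control cells (-1.31 ± 0.19, SE, adjusted p = 0.027, limma). In over-expression cells it stood at 0.13 and -0.31, above -1.06 and -0.63 in their controls (0.76 ± 0.25, SE, adjusted p = 0.395, limma), so its groups did not overlap in either cell comparison. Here too replicates 1 and 3 of the mutant control cells held the same deposited number, and the call is not made where such genes are left out. FBgn0034390, under amine and carbohydrate metabolic process, stood at 1.83 and 2.38 in over-expression cells against 0.44 and 1.02 in their controls (1.38 ± 0.31, SE, adjusted p = 0.328, limma). FBgn0031461, under axon guidance in another of the study's tables, stood at 2.20 and 1.84 in over-expression cells against 0.87 and 1.43 (0.87 ± 0.27, SE, adjusted p = 0.375, limma), and at 0.39 and -0.46 in mutant cells against 0.97, 0.03 and -0.04. These genes were picked by their annotation after their values were seen.

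The 3 genes with a symbol differed among themselves. CG33272, whose function is not described in the sources used here, had the largest difference of all genes in mutant embryos, at -4.00 and -4.58 against 0.44 and 2.36 in controls, and stood at 2.23, 4.19 and 1.87 in over-expression embryos against 0.26, 0.66 and -0.19. The groups were well apart in embryos, but in cells single arrays decided. It stood at 4.83 and -1.71 in over-expression cells against -2.06 and -2.34 in their controls (3.76 ± 2.32, SE, adjusted p = 0.538, limma), and at -2.81 and -3.66 in mutant cells against -4.05, 0.76 and -2.72 in mutant control cells. FBgn0040393, which has no symbol here, came next to CG33272 in the size of its embryo differences, at -4.11 and -4.38 in mutants against -1.32 and 1.66 in controls and at 0.98, 3.38 and 0.76 in over-expression embryos against -0.10, -0.10 and -0.93. Its cell arrays also differed within groups, at 4.13 and -2.50 in over-expression cells against -3.29 and 1.13 in their controls. Swim, a secreted cathepsin-like protein known to bind the Wingless signal, stood at -2.04 and -0.51 in mutant embryos against -0.47 and 1.35 in controls, and at -0.16, 1.89 and -0.25 in over-expression embryos against -0.48, -0.57 and -0.83. Its values overlapped in both cell comparisons, with log2 differences of -0.47 ± 0.57 in mutant cells and 1.30 ± 0.96 in over-expression cells (SE, adjusted p = 0.698 and 0.59, limma). Aldh, the mitochondrial aldehyde dehydrogenase, was well expressed in all cells. It stood at 2.02 and 1.25 in mutant cells against 2.85, 3.60 and 2.17 in mutant control cells (-1.24 ± 0.48, SE, adjusted p = 0.222, limma), and in over-expression cells at 3.80 and 3.70 against 3.77 and 3.79 (-0.03 ± 0.13, SE, adjusted p = 0.926, limma). The 4 arrays of the over-expression experiment's cells thus lay within a narrow range for Aldh.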

How the data were processed

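RNA was measured on 1-colour Affymetrix arrays, 19 in all. The authors summarised the probe signals to 1 value per gene with R and Bioconductor and an ENSEMBL gene definition of the chip, and the submitters' processing notes name RMA. Since no unit is written beside the deposited table, its values were read as log2, which their range allows. The 182 control features were left out, and each array's median over the 12679 genes was subtracted.

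Differences in sorted cells were tested with limma 3.58.1 in R 4.3.3, fitted to the 2 groups compared, with no filter, two-sided and adjusted by Benjamini-Hochberg over all genes. The fit was tested on simulated data with independent noise at each gene, in which 200 genes were lowered by 2. It called 82.5% of them with the layout of the mutant cells and 85.5% with that of the over-expression cells. A shift shared by many genes on a single array was not simulated, so this check does not cover it. The number of arrays limits precision, and p-values measure the spread between these samples alone.

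The genes and lists were chosen with earlier results of these data known. Named genes are those with the largest combined embryo difference, those called or candidates in cells, those nearest the thresholds and checks, with at most 2 genes without a symbol for each, and annotated genes picked after their values were seen. Symbols came from a RefSeq table, which paired 105 genes, and from the study, with 112 genes named in all. Alternatives were the deposited scale, quantile normalization, shared fits, filters, a replicate block and each array left out.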

Additional observations from a re-analysis of the deposited data

Results flagged for a closer look

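Among the genes named above or nearest the rule's thresholds, 4 separated in opposite directions in embryos and in sorted cells. On the centred values the arrays did not overlap in either. Of the genes kept by the rule, 21 were higher in mutant cells without overlap (6.05%, against 22.5% of all genes). In over-expression cells 22 were lower without overlap (6.34%, against 33.7% of all genes). Separation against the direction of the rule was thus rarer among the kept genes than among all genes. These counts did not ask for separation in embryos. For FBgn0038509 and FBgn0011834 the direction in cells rests on the centring. The array medians were 6.24 and 6.17 in mutant cells, against 6.84, 6.97 and 6.85 in mutant control cells. On the deposited scale FBgn0011834 was lower in mutant cells, and the groups of FBgn0038509 overlapped. The difference between cells and embryos was not tested, and the embryo direction was fixed by the choice of genes. FBgn0034247 stood at 1.85 and 1.68 in mutant cells against -1.89, -1.69 and -1.66 in mutant control cells, a log2 difference of 3.51 (adjusted p = 0.0029, limma, and 0.0403 or less in the alternatives tried), while in embryos it stood at -1.42 and -1.51 in mutants against -1.20 and 0.69 in controls. FBgn0038509, the gene nearest the mutant threshold, stood at -2.87 and -2.43 in mutant cells against -3.26, -3.40 and -3.28 in mutant control cells (0.66), where its deposited value was the same number on all 3 arrays, and at -3.79 and -4.43 in mutant embryos against -3.37 and -3.25 in controls. In over-expression cells it kept the embryo direction, at 0.67 and 0.55 against -2.94 and -2.60 in their controls (3.38, adjusted p = 0.187, limma). FBgn0011834, under proteolysis, stood at -3.20 and -3.23 in mutant cells against -3.65, -3.68 and -3.57 in mutant control cells (0.42), replicates 2 and 3 of which held the same deposited number, and at -3.16 and -3.15 in mutant embryos against -2.43 and -0.70 in controls. FBgn0034664 stood at -3.38 and -3.78 in over-expression cells against -1.85 and 0.04 in their controls (-2.67, adjusted p = 0.354, limma), and at -0.91, 0.99 and -1.36 in over-expression embryos against -2.86, -2.79 and -2.67. Some of these cell values lay below the lower quartile of all genes on their arrays. They were those of FBgn0011834 in mutant and mutant control cells, FBgn0038509 in mutant control cells and FBgn0034664 in over-expression cells.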

How the results depend on the processing

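The rule kept 210 genes at a threshold of 1 and 120, of which 114 were among the 347, with group medians in place of means. With each embryo array left out it kept between 110 and 557 genes, and 44 without the 2 high arrays, a setting chosen after seeing the data, as was leaving out 2 cell arrays together (124 genes with both directions). The deposited scale (318) and quantile normalization (335) stayed within 1.5 times. In mutant cells the 25 called genes became 157 on the deposited scale, where the median of all genes lay at -0.67 and 44.4% of all genes were called lower, 7 with all 4 groups in a shared fit, 15 without genes of equal values on 2 arrays, 39 with an intensity trend and 82 by the candidate rule. With each cell array left out they numbered 2 to 51. With the replicate number as a block there were 142, of which 23 were among the 25. Same-numbered mutant and control cells correlated at 0.132 and -0.383 in their deviations, and over-expression cells at 0.111, so the numbers were not taken as pairs, and the block called 0 genes in over-expression cells. There the 0 called genes became 7 in the shared fit and 39 by the candidate rule, and 0 with any array left out. The median difference in over-expression cells ranged from -0.081 to 1.05 with an array left out and was -0.081, of opposite sign, without replicate 1 of the over-expression cells. In mutant cells it ranged from -1.01 to -0.50. The 217 genes with both directions ranged from 137 to 244. The cause of these shifts was not tested. Deposited values that were the same number on 2 or more arrays, with no tolerance, were present in mutant control cells at 60 of the 347 genes (17.3%, against 26.2% of all genes), and lower the spread that limma sees there.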
